A study of Mus musculus with 2 samples.

Results

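The genes described here encode 8 proteins of the dystrophin complex: Dmd, Utrn, Dag1, Sgca, Sgcb, Sgcd, Sntb1 and Dtna. They were chosen by symbol and are 8 of the 26100 genes listed in both count matrices of the series. The dystrophin complex links the actin cytoskeleton of a muscle fibre to the surrounding basement membrane. Dystrophin binds actin at one end and the membrane protein dystroglycan at the other, the sarcoglycans stabilise dystroglycan in the membrane, and the syntrophins and dystrobrevins attach signalling proteins on the inner side. Loss of dystrophin or of a sarcoglycan causes muscular dystrophy, and utrophin is a relative of dystrophin that many cell types make.

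Single-cell RNA was counted in 2 mouse cultures of genotype Tg:Pax7-nGFP/C57BL6;DBA2, which carries a nuclear green fluorescent reporter of the muscle stem cell gene Pax7. MEF are embryonic fibroblasts in MEF media, and iMPC are induced myogenic progenitor cells that were derived from such fibroblasts by MyoD together with F/R/C and were then kept in medium with F/R/C. MyoD is a transcription factor that turns fibroblasts towards muscle, and the labels do not spell out F/R/C or say how MyoD was delivered. Each culture is 1 library, so nothing here has a replicate check and no test was made. Every interval is an exact 95% interval that covers counting error only.

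The values are molecules counted at the 3′ end of transcripts by unique molecular identifiers (UMIs), given as CPM, the UMIs of a gene scaled to the same total in each set of cells. Levels of different genes were not set on a scale per length, so each gene was compared between sets and not with other genes. MEF cells were 6043 barcodes with at most 20% mitochondrial UMIs, and iMPC cells were 9349 barcodes above a UMI minimum (the shallowest kept had 8040 UMIs) with the same mitochondrial limit. Among the iMPC cells 4 sets were defined by UMIs of marker genes. The Pax7 set had at least 1 UMI of Pax7 and 0 of Myog, and held 2180 cells. The Myog set had at least 5 UMIs of Myog, a regulator of muscle differentiation, and at most 1 of Ckm, and held 1724 cells. The Ckm set had at least 5 UMIs of Ckm, the muscle creatine kinase of differentiated muscle, and held 1037 cells. The Dcn set had at least 5 UMIs of Dcn, a matrix gene of fibroblasts, and held 553 cells, of which 110 were also in the Pax7 set, 18 in the Myog set and 18 in the Ckm set. A further 4001 iMPC cells met no rule.

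Depth differed between the sets, with medians of 18929 UMIs per cell in MEF, 18729.5 in the Pax7 set, 23857.5 in the Myog set, 42148 in the Ckm set and 18064 in the Dcn set. Shares of cells with a UMI are therefore given after drawing 5000 UMIs from each cell, with the undrawn share beside them, and 284 MEF cells below that depth were left out of shares. Fibroblast markers summed to 5638 CPM over 7 genes in MEF and 2913 in the Dcn set. They summed to 563 CPM in the Pax7 set, 151 in the Myog set and 66.0 in the Ckm set. Myogenic markers summed over 8 genes to 95.7 CPM in MEF, with 2 of them at 0, and to 799 in the Pax7 set. They summed to 10410 CPM in the Myog set, 33037 in the Ckm set and 3001 in the Dcn set. The genes that define the sets are among these markers, so the sums are partly fixed by the set rules. Dcn alone was at 1162 CPM in the Dcn set and Myog at 1339 CPM in the Myog set. By rule Myog was at 0 in the Pax7 set. The 5 smooth muscle markers, among them Des, which skeletal muscle also makes, summed to 9884 CPM in MEF, 1051 in the Pax7 set, 1957 in the Myog set, 3329 in the Ckm set and 1098 in the Dcn set. The part of these markers in the comparisons with MEF was not tested. Sums over the 4 endothelial and the 4 epithelial markers stayed below 1 CPM in each of the 5 sets, and the 4 immune markers reached at most 3.68 CPM. The 4 glial markers summed to 13.0 CPM in the Dcn set and to at most 2.14 CPM in the other sets. The 2 libraries shared 16 barcodes among kept cells.

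Promoter windows of 250 bases before a RefSeq start site on GRCm38.p6 were found for 6 of the 8 genes, and not for Sntb1 or Dtna. The windows of Dmd and Sgca are shown, Sgca because it was nearly undetected in MEF. Those of Dmd lie at a start for full-length dystrophin and at an internal start that makes a short form. Counts at the 3′ end do not separate these forms. Capitals mark matches to the E-box CANNTG, the letters bound by MyoD and myogenin among other factors, and to the motifs named MEF2 and CArG. Sequences run 5′ to 3′ on the gene's strand. The first is Dmd at its first start (chrX:82948620-82948869, plus strand), the next is Dmd at the internal start (chrX:85048045-85048294, plus strand), and the last is Sgca (chr11:94976328-94976577, minus strand).
Dmd first start: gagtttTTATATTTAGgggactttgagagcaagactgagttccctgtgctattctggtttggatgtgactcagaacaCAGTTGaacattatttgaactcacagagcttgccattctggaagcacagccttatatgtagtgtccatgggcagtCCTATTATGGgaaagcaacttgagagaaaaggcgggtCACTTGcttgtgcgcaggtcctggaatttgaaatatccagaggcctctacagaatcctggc
Dmd internal start: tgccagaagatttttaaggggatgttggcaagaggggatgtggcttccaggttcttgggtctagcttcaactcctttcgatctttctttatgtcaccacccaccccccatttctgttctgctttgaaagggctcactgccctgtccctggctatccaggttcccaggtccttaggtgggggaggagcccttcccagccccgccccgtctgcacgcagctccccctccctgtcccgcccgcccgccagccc
Sgca: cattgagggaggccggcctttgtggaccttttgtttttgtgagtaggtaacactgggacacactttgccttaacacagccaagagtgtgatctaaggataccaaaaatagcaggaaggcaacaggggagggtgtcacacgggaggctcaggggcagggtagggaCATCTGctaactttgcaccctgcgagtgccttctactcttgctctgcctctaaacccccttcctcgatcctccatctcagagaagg
The first Dmd window held E-boxes whose first bases lie at -173 and -61 from the start site, a MEF2 match at -244 and a CArG match at -98. The internal Dmd window held none of these letters, and the Sgca window held 1 E-box, at -86. Both strands were searched, and E-boxes do not share bases with the MEF2 or CArG matches in these windows. Of all 32851 windows in the table, 66.2% held an E-box, 13.0% the form CAGCTG, 2.92% a MEF2 match and 1.47% a CArG match. A match describes letters only.

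All 8 genes had their highest level in the Ckm set, but by very different amounts. Compared with the Pax7 set, 6 of 8 were at least 2-fold higher in the Ckm set and 0 were at least 2-fold lower, where 10.6% of all 9559 genes with a mean of at least 5 CPM over the 5 sets were higher and 31.2% lower by that much. The 8 genes passed that filter, Sgca and Sntb1 only through the iMPC sets, so the count is a description. The median log2 ratio was 1.80 over the 8 genes and -0.49 over all genes tested. On a scale that sets the median gene to 0, Utrn stood at 1.15 and Dag1 at 0.97, in place of 0.66 and 0.48 on the CPM scale, and the other 6 stood at 1.92, the value of Sgcb, or above.

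**Figure D1:**
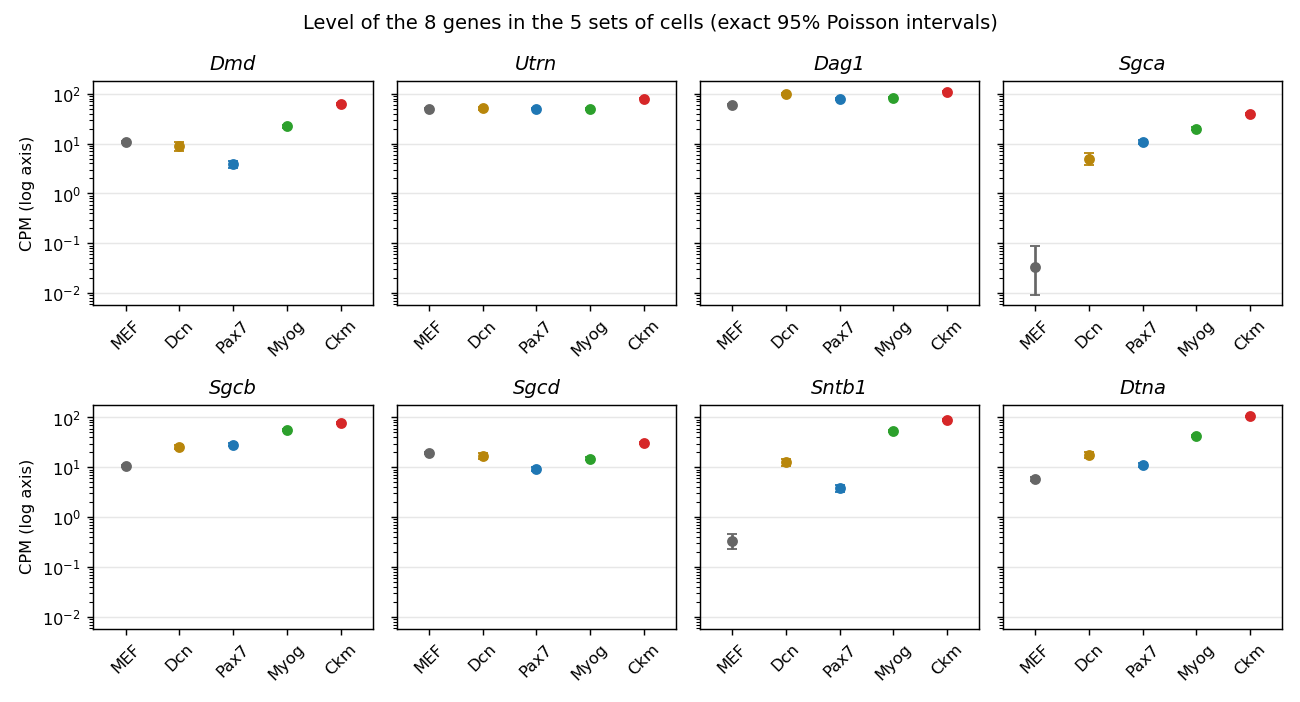
Level of each gene in CPM on a log axis in MEF and in the 4 sets of iMPC cells, named by the gene that defines them. Points are pooled sets from 1 library each and bars are exact 95% Poisson intervals. Utrn and Dag1 lie almost flat, whereas Sgca and Sntb1 span from under 1 CPM in MEF to 39.7 and 89.1 CPM in the Ckm set.

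Dmd (ENSMUSG00000045103, chrX:82948870-85206141, plus strand in GENCODE) encodes dystrophin. Its level was 62.6 CPM (60.4 to 64.8) in the Ckm set, 22.3 (20.95 to 23.7) in the Myog set, 10.7 (10.1 to 11.3) in MEF, 8.87 (7.28 to 10.7) in the Dcn set and 3.86 (3.303 to 4.49) in the Pax7 set. Dmd was lower in the Pax7 set than in MEF, and the levels of MEF and the Dcn set were not separated by counting error. Without the 36 cells that the Dcn set shares with the Myog and Ckm sets, Dmd in the Dcn set was 3.08 CPM (2.11 to 4.35), below MEF and overlapping the Pax7 set. At 5000 UMIs per cell, 24.2% of Ckm cells (21.6 to 26.9) and 1.97% of Pax7 cells (1.43 to 2.65) had a Dmd UMI, with 75.7% and 6.88% before drawing. The log2 ratio of the Ckm set over the Pax7 set was 4.02 (3.79 to 4.25), and that of the Pax7 set over MEF was -1.47 (-1.71 to -1.23). GENCODE lists 3 protein-coding Dmd transcripts, 1 from the first start and 2 that start inside the gene. Their ends lie within 3643 bases, so the 3′ counts in each set can hold full-length and shorter forms.

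Utrn (ENSMUSG00000019820, chr10:12382188-12869365, minus strand) encodes utrophin, which can take the place of dystrophin in the complex. Its level was 79.9 CPM (77.4 to 82.4) in the Ckm set, 51.1 (47.2 to 55.3) in the Dcn set, 50.5 (48.5 to 52.7) in the Pax7 set, 50.4 (49.2 to 51.7) in MEF and 48.9 (46.9 to 50.9) in the Myog set. Only the Ckm set stood apart, and the other 4 levels overlapped within counting error. At 5000 UMIs, 28.8% of Ckm cells (26.1 to 31.7) had a Utrn UMI, against 20.01% of Myog cells (18.1 to 22.0), the lowest share, with 90.8% and 60.2% before drawing. Utrn was therefore higher, not lower, where Dmd was highest, with a log2 ratio of 0.66 (0.58 to 0.74) for the Ckm set over the Pax7 set.

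Dag1 (ENSMUSG00000039952, chr9:108204634-108263958, minus strand) encodes dystroglycan, the receptor that binds laminin outside the cell and dystrophin inside. Its level was 109.5 CPM (107 to 113) in the Ckm set, 98.2 (92.7 to 103.9) in the Dcn set, 83.5 (80.9 to 86.1) in the Myog set, 78.3 (75.7 to 80.9) in the Pax7 set and 60.7 (59.3 to 62.2) in MEF. Its whole range was narrow, and the Myog set was above the Pax7 set by a log2 ratio of only 0.09 (0.03 to 0.16). A Dag1 UMI was found at 5000 UMIs in 40.4% of Ckm cells (37.4 to 43.5) and in 24.2% of MEF cells (23.1 to 25.4), with 92.6% and 60.5% before drawing.

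The 3 sarcoglycans among the genes followed different patterns. Sgca (ENSMUSG00000001508, chr11:94962791-94976327, minus strand) encodes alpha-sarcoglycan, found mainly in striated muscle. Its level was 39.7 CPM (38.0 to 41.5) in the Ckm set, 19.8 (18.5 to 21.1) in the Myog set, 10.8 (9.84 to 11.8) in the Pax7 set, 4.93 (3.76 to 6.34) in the Dcn set and 0.0339 (0.00923 to 0.0867) in MEF. The MEF value is 4 UMIs in 6043 cells, so Sgca separated the Pax7 set from MEF by a log2 ratio of 8.32 (6.95 to 10.20), the widest gap of the 8 genes between those sets. At 5000 UMIs, 17.8% of Ckm cells (15.6 to 20.3), 5.09% of Pax7 cells (4.21 to 6.10) and 0.0174% of MEF cells (0.00044 to 0.0967) had a Sgca UMI, with 75.9%, 16.7% and 0.0662% before drawing.

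Sgcb (ENSMUSG00000029156, chr5:73632749-73647790, minus strand) encodes beta-sarcoglycan, the core subunit that pairs with delta-sarcoglycan during assembly. Its level was 77.2 CPM (74.8 to 79.7) in the Ckm set, 55.5 (53.4 to 57.7) in the Myog set, 28.7 (27.1 to 30.3) in the Pax7 set, 25.6 (22.9 to 28.6) in the Dcn set and 10.7 (10.1 to 11.3) in MEF. Sgcb was already at 71.9% of its Ckm-set level in the Myog set, the highest such share among the 6 genes that were at least 2-fold higher in the Ckm set than in the Pax7 set. The Pax7 and Dcn sets were not separated, with a log2 ratio of -0.16 (-0.35 to 0.02) for the Dcn set over the Pax7 set. Without the 36 shared cells the Dcn set was at 20.7 CPM (18.03 to 23.7), below the Pax7 set by a log2 ratio of -0.47 (-0.69 to -0.26). At 5000 UMIs, 33.8% of Ckm cells (30.9 to 36.7) and 5.17% of MEF cells (4.62 to 5.78) had an Sgcb UMI, with 92.6% and 18.2% before drawing.

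Sgcd (ENSMUSG00000020354, chr11:46896253-47988969, minus strand) encodes delta-sarcoglycan, which muscle and other tissues make. Its level was 30.4 CPM (28.9 to 32.0) in the Ckm set, 19.6 (18.8 to 20.5) in MEF, 16.6 (14.4 to 19.05) in the Dcn set, 15.0 (13.9 to 16.1) in the Myog set and 9.22 (8.35 to 10.2) in the Pax7 set. Sgcd shared with Dmd a level lower in the Pax7 set than in MEF, by a log2 ratio of -1.09 (-1.25 to -0.94), while its partner Sgcb was higher there by 1.42 (1.31 to 1.54). The intervals of the Dcn and Myog sets overlapped. At 5000 UMIs, 15.7% of Ckm cells (13.6 to 18.1) and 4.22% of Pax7 cells (3.42 to 5.15) had an Sgcd UMI, with 72.0% and 15.2% before drawing.

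Both inner proteins were highest in the Ckm set and next highest in the Myog set. Sntb1 (ENSMUSG00000060429, chr15:55636388-55906949, minus strand) encodes beta-1-syntrophin, an adaptor bound to dystrophin. Its level was 89.1 CPM (86.5 to 91.8) in the Ckm set, 53.1 (51.0 to 55.2) in the Myog set, 12.8 (10.9 to 15.0) in the Dcn set, 3.79 (3.24 to 4.41) in the Pax7 set and 0.330 (0.235 to 0.452) in MEF, the last from 39 UMIs. Its log2 ratio of 4.55 (4.33 to 4.79) for the Ckm set over the Pax7 set was the largest of the 8 on the CPM scale. At 5000 UMIs, 33.6% of Ckm cells (30.7 to 36.5), 20.3% of Myog cells (18.4 to 22.3) and 2.02% of Pax7 cells (1.47 to 2.70) had an Sntb1 UMI, with 89.9%, 57.7% and 7.43% before drawing.

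Dtna (ENSMUSG00000024302, on chromosome 18) encodes alpha-dystrobrevin, a relative of dystrophin that binds both dystrophin and the syntrophins. Its level was 105 CPM (102 to 108) in the Ckm set, 42.4 (40.6 to 44.4) in the Myog set, 17.6 (15.3 to 20.1) in the Dcn set, 11.3 (10.3 to 12.3) in the Pax7 set and 5.84 (5.41 to 6.29) in MEF. These 5 sets stood in the same order for Dtna as for Sntb1, and none of the intervals overlapped in either gene. Without the 36 shared cells Dtna in the Dcn set was 10.2 CPM (8.36 to 12.3), with a log2 ratio of -0.15 (-0.46 to 0.16) over the Pax7 set, so the order of those 2 sets for Dtna was not separated. Sntb1 in the Dcn set was then 5.97 CPM (4.58 to 7.65), still above the Pax7 set. At 5000 UMIs, 39.2% of Ckm cells (36.3 to 42.3) and 2.67% of MEF cells (2.27 to 3.12) had a Dtna UMI, with 92.6% and 9.76% before drawing.

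RNA in 48846 iMPC barcodes of 200 to 600 UMIs, with a median of 430, was taken as free RNA. Whether it was free RNA was not tested. If each cell held as many free UMIs as that median, at most 0.645% of cells thinned to 5000 UMIs would carry a UMI from that source, the value for Dtna in the Dcn set. The measured share was above the share expected from free RNA for all 8 genes in the 4 iMPC sets, and, as a ratio, nearest to it for Sntb1 in the Pax7 set, with 2.02% measured and 0.591% expected. No set of iMPC cells is known to lack these genes, so the share in a cell type without them was not given.

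The 8 genes were also unevenly placed among the 9349 iMPC cells as a whole. The Ckm set held 20.9% of all iMPC UMIs and 57.1% (55.8 to 58.4) of the Dmd UMIs. It held 52.3% (51.4 to 53.3) of the Dtna UMIs and 50.0% (48.9 to 51.1) of those of Sntb1. The shares were 42.2% for Sgca, 39.1% for Sgcd and 33.7% for Sgcb, and the smallest were 29.5% for Utrn and 26.4% for Dag1. The Pax7 set held 18.9% of all UMIs but 3.19% of the Dmd UMIs and 1.93% of the Sntb1 UMIs. At 5000 UMIs per cell, UMIs of 4 or more of the 8 genes were found in 19.9% of Ckm cells (17.5 to 22.4). The share was 4.18% of Myog cells (3.28 to 5.23) and 1.27% of Dcn cells (0.51 to 2.59). It was 0.321% of Pax7 cells (0.129 to 0.660) and 0.104% of MEF cells (0.0382 to 0.227). In the Ckm set, pairs of the 8 shared a cell 0.841 to 1.26 times as often as independence gives, with a median of 1.05. A cell with none of the 8 was found in 8.29% of the Ckm set and in 49.6% of MEF.

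**Figure D2:**
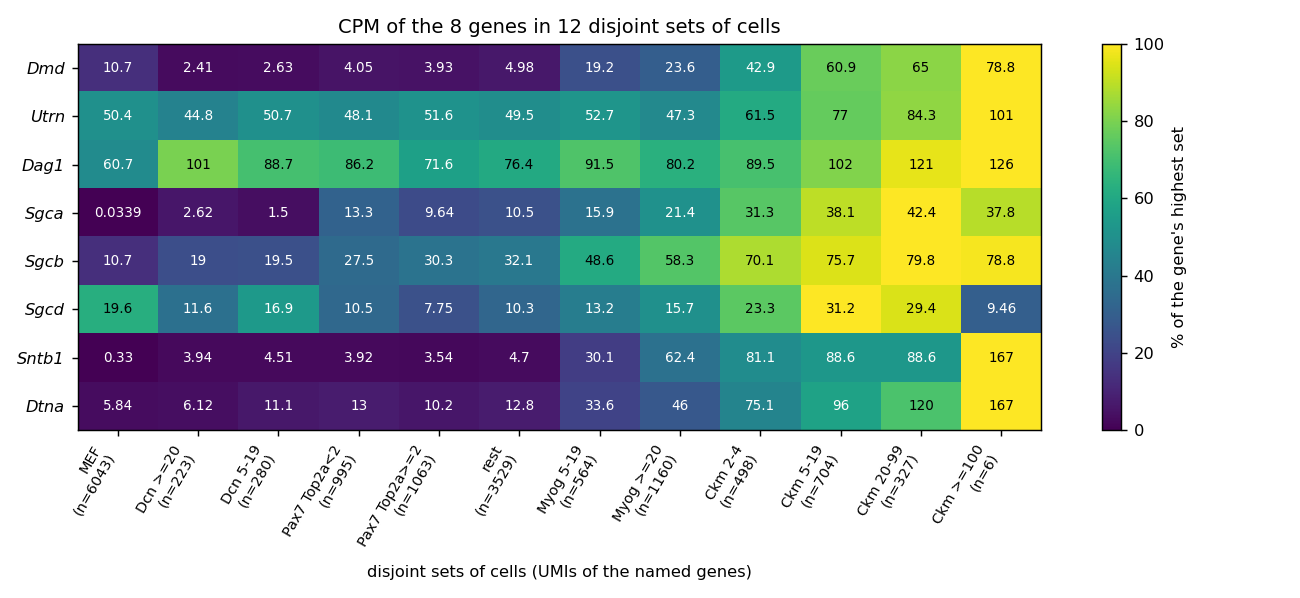
CPM of each gene (numbers) in 12 sets that share no cell, ordered by hand from fibroblast to differentiated muscle markers, with the number of cells under each; colour is the percentage of the gene's own highest set. Dmd lies between 2.41 and 4.98 CPM in the 5 iMPC sets under the Myog and Ckm limits and reaches 65.0 CPM at 20 to 99 UMIs of Ckm; the set with 100 or more UMIs of Ckm has 6 cells.

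Among cells with Ckm UMIs, those with more had more of some of the genes only. Dmd was at 42.9 CPM (39.9 to 46.2) in cells with 2 to 4 UMIs of Ckm, at 60.9 (58.2 to 63.8) with 5 to 19 and at 65.0 (61.4 to 68.8) with 20 to 99. The last intervals overlap, so for Dmd these cells were not separated from those with 5 to 19. Sgcd stood at 23.3 (21.1 to 25.7), 31.2 (29.3 to 33.3) and 29.4 (27.0 to 32.0) CPM in the same order, likewise with no separation between the last 2. Dtna did differ, at 75.1 (71 to 79.4), 96 (92.5 to 99.6) and 119.7 (115 to 125) CPM. Deeper cells more easily meet a UMI limit, and median depth was 29408.5, 37963.5 and 52267 UMIs in these sets; its part in the values was not tested.

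The next comparison placed each gene along differentiation within the iMPC library. In the Myog set 3 of 8 genes were at least 2-fold higher than in the Pax7 set and 0 lower, against 6.89% and 13% of all genes tested. The 3 were Sntb1, with a log2 ratio of 3.81 (3.58 to 4.04), Dmd with 2.53 (2.29 to 2.77) and Dtna with 1.91 (1.77 to 2.06). Sgcb, Sgca and Sgcd stood at 0.95, 0.88 and 0.70, and Utrn at -0.05 (-0.13 to 0.04). With the median gene set to 0, 5 of 8 passed 2-fold, since Sgcb came to 1.12 and Sgca to 1.04, and Utrn came to 0.11. The share of all genes tested on that scale is not given here, so the count of 5 is a description.

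The Myog set was not uniform for these genes. It was split, after its values had been seen, at 20 UMIs of Myh3, the embryonic myosin heavy chain of newly formed muscle. Dmd was at 54.8 CPM (51.2 to 58.6) in the 433 cells with at least 20 Myh3 UMIs and at 5.84 (5.01 to 6.76) in the other 1291, a log2 ratio of 3.23 (2.998 to 3.47). Most of the Dmd UMIs in the Myog set thus lay in its Myh3-high cells, with 851 of 1030 UMIs. The log2 ratio of Myh3-high over Myh3-low cells was 1.77 (1.63 to 1.90) for Dtna, 1.45 (1.23 to 1.67) for Sgcd, 1.24 (1.05 to 1.43) for Sgca, 0.74 (0.62 to 0.86) for Utrn, 0.66 (0.55 to 0.78) for Sgcb and 0.12 (0.03 to 0.22) for Dag1.

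Sntb1 was also higher in the Myh3-high cells, by a log2 ratio of 1.12 (1.01 to 1.24). It was at 82.8 CPM (78.3 to 87.4) in the Myh3-high cells and still at 38.0 (35.9 to 40.3) in the Myh3-low cells, which was above the Pax7 set by a log2 ratio of 3.33 (3.09 to 3.57). For Dmd the same Myh3-low cells were above the Pax7 set by 0.60 (0.28 to 0.91), and for Sgcd by 0.04 (-0.19 to 0.26). Dtna stood at 1.06 (0.89 to 1.22), Sgcb at 0.69 (0.58 to 0.80), Sgca at 0.33 (0.14 to 0.53), Dag1 at 0.05 (-0.02 to 0.13) and Utrn at -0.34 (-0.45 to -0.24) in that comparison. Relative to their Ckm-set levels, Myh3-low cells had 60.1% of Sgcb, 42.7% of Sntb1, 22.3% of Dtna and 9.33% of Dmd.

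**Figure D3:**
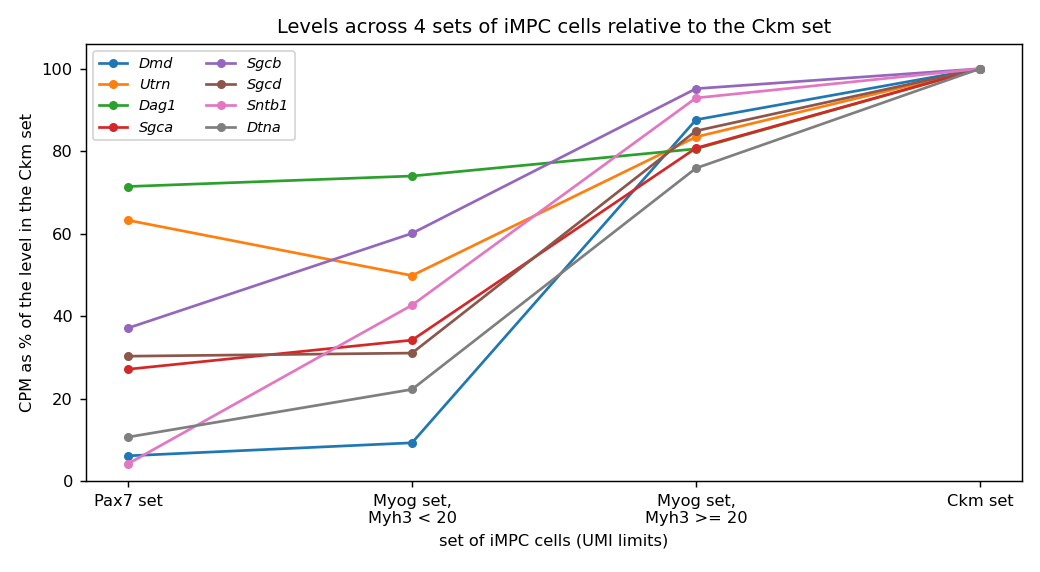
CPM of each gene as a percentage of its level in the Ckm set, in the Pax7 set, the Myog set below and from 20 UMIs of Myh3, and the Ckm set; points are pooled sets of 1 library and lines join the same gene. Dmd stays at 6.17% and 9.33% in the first 2 sets and reaches 87.6% in the third, while Sntb1 goes from 4.26% to 42.7% and 92.9%.

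The Myh3-high cells were deeper, with a median of 33518 against 21722 UMIs. After every cell of the Myog set was drawn down to 5000 UMIs and split at 5 Myh3 UMIs, the log2 ratio of high over low cells was 2.76 (2.25 to 3.29) for Dmd and 1.04 (0.75 to 1.32) for Sntb1. The Myog set was also split at 2 UMIs of Top2a, a gene of dividing cells. Dmd was at 9.37 CPM (8.08 to 10.8) in 651 cells with at least 2 and at 32.2 (30.1 to 34.5) in 1073 with fewer. Cells with at least 2 were the deeper ones in that split, at a median of 28794 against 21337 UMIs. Utrn was at 48.0 and 49.5 CPM in these cells, with overlapping intervals.

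In MEF, Top2a did not go with such a difference. The 473 MEF cells with at least 2 Top2a UMIs had 11.6 CPM of Dmd (9.75 to 13.6), and the other 5570 had 10.6 (9.96 to 11.2). Sgcb was somewhat higher in the dividing MEF cells, at 14.5 (12.4 to 16.8) against 10.3 (9.66 to 10.9). Sgcd was also higher there, at 23.4 (20.8 to 26.2) against 19.2 (18.4 to 20.1). Dag1 was slightly lower, at 55.5 (51.4 to 59.8) against 61.4 (59.9 to 62.9). The intervals of the other genes overlapped.

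Compared with MEF, the Pax7 set had 3 of 8 genes at least 2-fold higher and 2 lower, against 16.5% and 16.8% of all genes tested. Sgca, Sntb1 and Sgcb were the higher ones, with log2 ratios of 8.32, 3.52 (3.01 to 4.06) and 1.42, and Dmd and Sgcd were the lower ones. Dtna stood at 0.95 (0.78 to 1.12), Dag1 at 0.37 (0.31 to 0.42) and Utrn at 0.00 (-0.07 to 0.07). The Ckm set had 5 of 8 genes higher than MEF and 0 lower, against 13.5% and 33.4%. With the median gene set to 0 in that comparison, which moves each log2 ratio up by 0.50, all 8 passed 2-fold. That shift also raises the ratios of all other genes, and the share of all genes on that scale is not given here. Sgca was higher there by a log2 ratio of 10.20 (8.84 to 12.07), Sntb1 by 8.08 (7.62 to 8.57), Dtna by 4.17 (4.06 to 4.29), Sgcb by 2.85 (2.76 to 2.94) and Dmd by 2.55 (2.46 to 2.65). These comparisons share sets and are not independent of each other.

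The Dcn set, the iMPC cells with a fibroblast matrix gene, gave a mixed result that rested on few cells. Against the Pax7 set, Sntb1 with 1.76 (1.43 to 2.08) and Dmd with 1.20 (0.84 to 1.56) were at least 2-fold higher and Sgca with -1.13 (-1.54 to -0.74) lower, where 11.3% of all genes tested were higher and 6.1% lower. Only 36 of the 553 Dcn cells were also in the Myog or Ckm set, at a median of 42213 UMIs, and they held 70.4% of the Dmd UMIs of the Dcn set. They held 60.3% of its Sntb1, 50.5% of its Dtna and 46.7% of its Sgca UMIs.

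Without those 36 cells, an alternative chosen after the data were seen, Dmd was at 3.08 CPM (2.11 to 4.35) in the Dcn set and its log2 ratio over the Pax7 set was -0.33 (-0.92 to 0.23). Sntb1 then had a ratio of 0.65 (0.21 to 1.08), and Sgca was at 3.08 CPM with -1.81 (-2.37 to -1.29), so that Sgca alone stayed past 2-fold. Against MEF the Dcn set had 4 of 8 genes higher and 0 lower, where 14.2% and 10.9% of all genes were. These were Sgca with 7.18 (5.75 to 9.11), Sntb1 with 5.28 (4.76 to 5.82), Dtna with 1.59 (1.36 to 1.81) and Sgcb with 1.26 (1.08 to 1.44). Without the 36 cells 2 of 8 were higher than MEF and 1 lower, and the share of all genes without them is not given here. Sgca stood at 6.51 (5.01 to 8.47) and Sntb1 at 4.18 (3.58 to 4.79), Sgcb at 0.95 (0.74 to 1.16) and Dtna at 0.81 (0.50 to 1.10) no longer passed 2-fold, and Dmd was lower, at -1.79 (-2.35 to -1.29). The part of RNA from more than 1 cell in the 36 barcodes was not tested beyond a doublet caller, whose removal of marked cells left 509 Dcn cells and a Dmd ratio of -0.13.

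Several of the proteins have a close relative with which they share a place in the complex, and the UMIs of a pair were compared between sets. Apart from Dmd with Utrn, the pairs were chosen after the data were seen, and a share is read across sets only. Dmd made 7.10% (6.10 to 8.20) of Dmd plus Utrn UMIs in the Pax7 set, 14.8% (12.3 to 17.6) in the Dcn set, 17.5% (16.6 to 18.4) in MEF, 31.3% (29.8 to 33.0) in the Myog set and 43.9% (42.7 to 45.1) in the Ckm set. Without the 36 shared cells the Dcn share was 6.04% (4.17 to 8.42), which overlaps the Pax7 share. The pair thus moved towards dystrophin in the Myog and Ckm sets although Utrn itself was not lower in the Ckm set.

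In 3 other pairs the relative was also lower in the Ckm set than in the Pax7 set, as given beside the other proteins of the complex. The relative of Sgca is Sgce, which encodes epsilon-sarcoglycan. Of the UMIs of both, Sgca made 0.107% (0.0291 to 0.273) in MEF and 20.3% (18.7 to 21.9) in the Pax7 set. It made 43.0% (40.9 to 45.2) in the Myog set and 74.7% (73.0 to 76.4) in the Ckm set. Sntb1 made 0.782% (0.557 to 1.07) of its UMIs with Sntb2, the beta-2-syntrophin, in MEF, 10.1% (8.71 to 11.7) in the Pax7 set, 79.5% (78.1 to 80.9) in the Myog set and 94.2% (93.5 to 94.9) in the Ckm set. Dtna made 47.4% (44.8 to 50.0) of its UMIs with Dtnb, the beta-dystrobrevin, in MEF, 62.3% (58.8 to 65.7) in the Pax7 set, 91.1% (89.8 to 92.3) in the Myog set and 99.2% (98.9 to 99.4) in the Ckm set. The largest step in the syntrophin pair lay between the Pax7 and Myog sets.

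**Figure D4:**
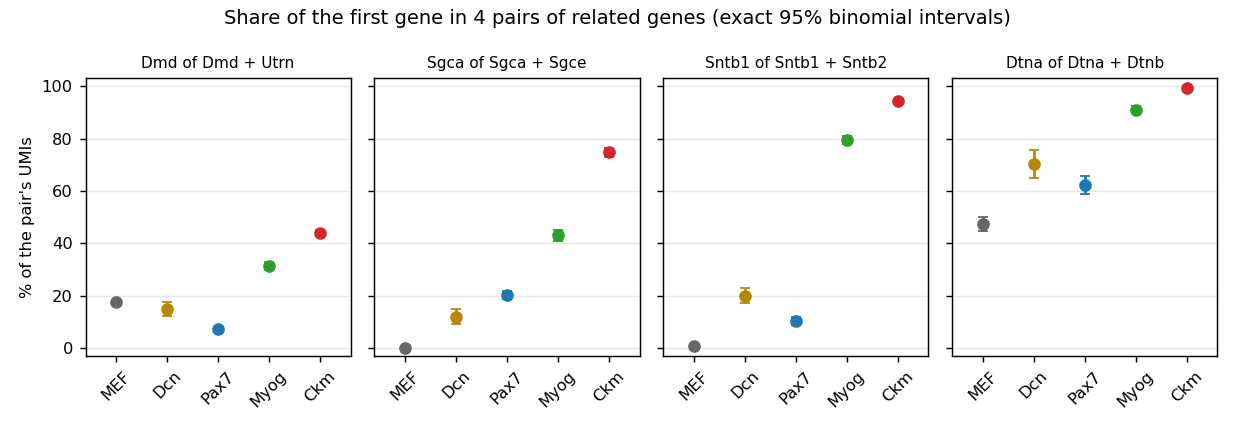
Share of the first gene in the UMIs of 4 pairs of related genes, in percent, in MEF and in the 4 iMPC sets; bars are exact 95% binomial intervals. In each pair the Ckm set is highest, at 43.9% for Dmd and at 99.2% for Dtna, and for Dmd the Pax7 set is at 7.10% and MEF at 17.5%. The Dcn share is 14.8% for Dmd, 11.7% for Sgca, 19.9% for Sntb1 and 70.4% for Dtna. Without the 36 shared cells, which the figure includes, it is 6.04%, 7.58%, 9.64% and 56.1% in the same order.

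Other proteins of the complex, from a list of 11 genes of which 7 had a mean of at least 5 CPM, stood on both sides. In the Ckm set over the Pax7 set 3 of the 7 were at least 2-fold higher and 3 lower, where 10.6% of all genes tested were higher and 31.2% lower, with a median log2 ratio of 0.31 against -0.49 for all genes tested. Cav3, the muscle caveolin, was at 527 CPM in the Ckm set and 7.29 in the Pax7 set, a log2 ratio of 6.18 (6.02 to 6.34). The 3 lower ones were the relatives already named, Dtnb at -3.02 (-3.53 to -2.55), Sntb2 at -2.62 (-2.81 to -2.43) and Sgce at -1.66 (-1.79 to -1.53).

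Genes for proteins outside the cell that bind dystroglycan went the other way. Of 7 listed, 6 had a mean of at least 5 CPM, and 5 of these were at least 2-fold lower and 0 higher in the Ckm set than in the Pax7 set, where 31.2% of all genes tested were lower and 10.6% higher. Their median log2 ratio was -2.11, against -0.49 for all genes tested. Bgn, the proteoglycan biglycan, was at 17.6 CPM in the Ckm set and 167 in the Pax7 set, a ratio of -3.25 (-3.35 to -3.15). Lama2, the laminin chain of the muscle basement membrane, was at 11.7 and 36.1 CPM, a ratio of -1.62 (-1.76 to -1.48). Lama4, Agrn and Lama5 had ratios of -2.97, -2.60 and -1.13, and Hspg2, which encodes perlecan, stood at -0.87.

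The enzymes that build the sugar chain by which dystroglycan binds laminin followed the median of all genes. Of 17 listed, 13 had a mean of at least 5 CPM, and 12 of these lay within 2-fold. At least 2-fold higher were 0 and lower 1, where 10.6% of all genes tested were higher and 31.2% lower. Their median log2 ratio was -0.46, against -0.49 for all genes tested. Dpm3, a subunit of the enzyme that supplies activated mannose, was the 1 gene below, at -1.50 (-1.56 to -1.44). Pomt1, a mannosyl transferase, stood at -0.82 (-1.08 to -0.57). Of 7 cytoskeletal partners, 4 had a mean of at least 5 CPM. Of these 1 was at least 2-fold higher and 1 lower, against the same 10.6% and 31.2% of all genes tested. Des, which encodes the muscle intermediate filament desmin, was higher by 1.97 (1.95 to 1.99). Ank3, an ankyrin, was lower, at -1.60 (-1.69 to -1.52), and Plec and Ank2 lay between.

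**Figure D5:**
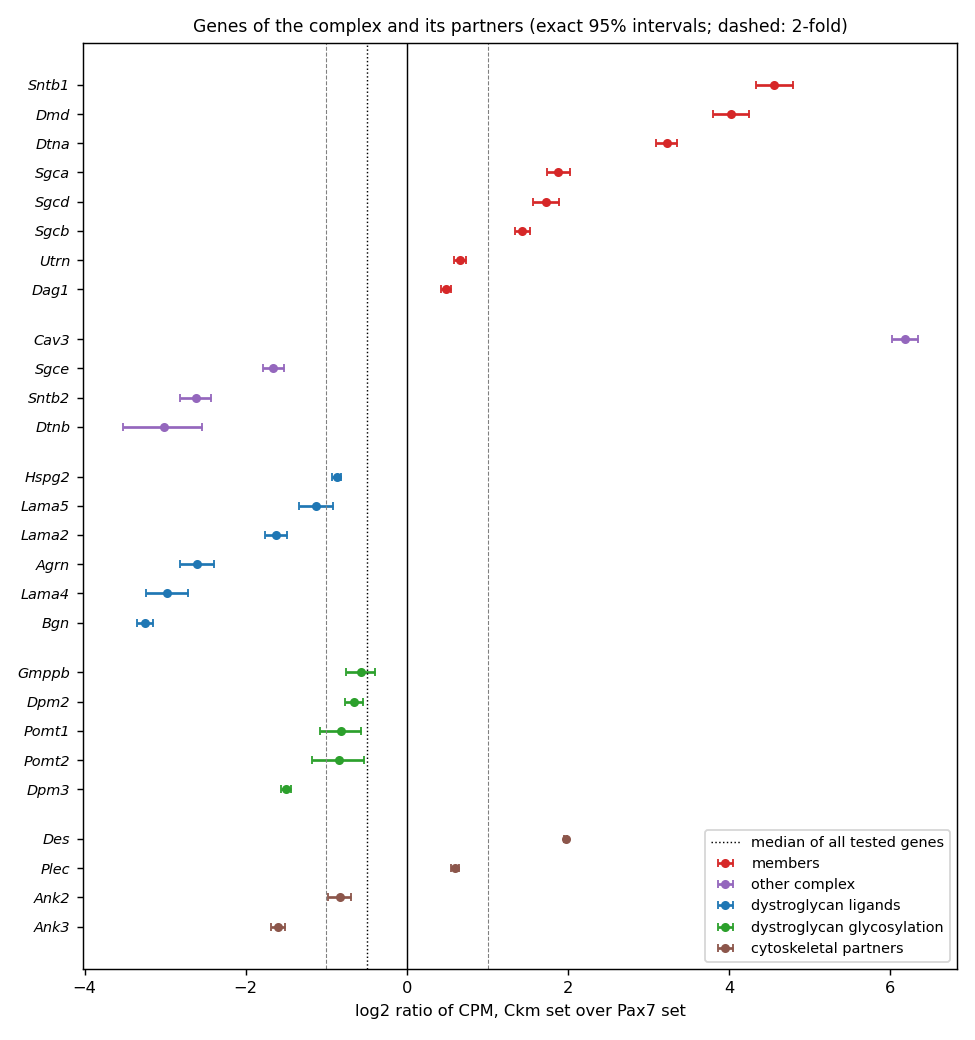
Log2 ratio of CPM in the Ckm set over the Pax7 set for the 8 genes and for up to 6 genes of each of 4 related lists, with exact 95% intervals; dashed lines mark 2-fold and the dotted line the median of all genes tested, -0.49. The 8 genes lie from 0.48 for Dag1 to 4.55 for Sntb1, and the dystroglycan ligands from -3.25 for Bgn to -0.87 for Hspg2.

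The genes whose levels ran most like each of the 8 were sought over the 12 disjoint sets by Pearson's r of log2(CPM + 1) among 9380 genes. The sets share libraries, so r is a description. For Dmd they were Cryab, Hipk2 and Nexn, with r from 0.990 to 0.992; Cryab encodes a small heat shock protein and Nexn the actin-binding protein nexilin. For Sntb1 they were Klhl41, Hspb3 and Zfp106, at 0.994 to 0.995, and for Dtna Klhl30, Eno3 and Myl6b, at 0.995, of which Eno3 is the muscle enolase. For Sgcb they were Tm6sf1, Rbm20 and Chrng, at 0.996 to 0.997, where Chrng encodes the embryonic subunit of the muscle acetylcholine receptor. For Sgca they were Asb5, Col19a1 and Ddc, at 0.984 to 0.991. Utrn ran most like Tbc1d1, Mpc2 and Dupd1 (0.970 to 0.979), Dag1 like Bhlhe40, Eaf1 and Ubr3 (0.939 to 0.943) and Sgcd like Paxx and Gpatch11 (0.934 to 0.983). Among the 8 themselves, Sntb1 with Dtna (0.973) and Sgca with Sgcb (0.968) had the highest r, and Sgca with Sgcd had the lowest, 0.190. Each set had equal weight, also the 6 cells with 100 or more UMIs of Ckm, where Sgcd had 3 UMIs. Its level there was 9.46 CPM (1.95 to 27.6), against 29.4 with 20 to 99 UMIs of Ckm. The part of that set in the r values of Sgcd was not tested.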

How the data were processed

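Counts were used as the authors deposited them: raw UMI counts per gene and barcode from the 10x Genomics 3′ kit, version 3 per the labels' protocols. The submitters' processing notes name Cell Ranger 4.0, Seurat 3.2.3 and GRCm38.p6, and the annotation is not given in the sources used here. The iMPC matrix (282903287 UMIs) lists 6794880 barcodes and the MEF matrix (118541302 UMIs) 6113, chosen in a way not given in the sources used here. The 24 genes listed for MEF only, with 0.209% of its UMIs, were dropped. Which treatment applied to MEF was taken from its own treatment label.

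UMIs were summed over cells, scaled to CPM and given exact Poisson, conditional or Clopper-Pearson intervals, using scipy 1.17.1 and numpy 2.4.6 (Python 3.11.15; pandas 2.3.3, scanpy 1.11.5 for Scrublet); the intervals were tested on simulated data. PCR copies are merged by UMI. Doublets were kept, and in an alternative Scrublet removed 377 iMPC cells by its own threshold and the 290 highest-scoring MEF cells. Positions are from GENCODE and promoter windows from the RefSeq table. Related genes with similar sequence could share reads. Of each related list, the 6 genes with the largest ratio between the Ckm and Pax7 sets were named, and for each member the 3 genes most like it. The members and lists were chosen with earlier results of these data known. Alternatives covered scaling, filters, set rules, depth, free RNA and fold limits. Some genes of the lists are not reported here.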

Additional observations from a re-analysis of the deposited data

Results flagged for a closer look

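RNA of the 8 genes was also counted in data outside the comparisons, the 48846 iMPC barcodes of 200 to 600 UMIs that were not called cells, where 0 UMIs would allow up to 0.141 CPM. Dtna was at 54.4 CPM, Sntb1 at 51.7, Dag1 at 49.0, Sgcb at 35.7, Utrn at 31.1, Sgca at 19.1, Dmd at 18.7 and Sgcd at 7.29. For Sntb1 and Dtna these levels were above those in the kept iMPC cells, which were 37.3 and 42.1 CPM, and for Dag1, Utrn, Sgcb, Sgcd and Dmd they were below, with Sgca at 19.7 in cells. In the far smaller barcodes of 1 to 100 UMIs, Sntb1 was at 33.0 CPM and Dtna at 29.8.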

How the results depend on the processing

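Of the values that answer a comparison, 88 kept their value within the limits set under the alternatives and 11 moved. Among single ratios and shares 1030 kept theirs, 359 moved and 3 were counted as turned in direction. Ranges over the alternatives spanned 0 for further ratios, such as -0.13 to 0.11 for Utrn in the Myog set over the Pax7 set. That of Dtna in the Dcn set over the Pax7 set ran from -0.16 to 0.73. The shares of all genes given above are for 2-fold on the CPM scale, and none is given here beside the counts under alternatives. The number of genes at least 2-fold apart in the Ckm set against the Pax7 set, 6, was 7 with the median gene set to 0 and at 1.5-fold, 5 at 3-fold and 6 under the others run. With the median gene set to 0, the count for the Myog set against the Pax7 set went from 3 to 5 and that for the Ckm set against MEF from 5 to 8. At a limit of 1.5-fold these 2 counts were 6 and 8, and that for the Dcn set against the Pax7 set went from 3 to 5. That last count was 1 when CPM was averaged over cells, with cells in exactly 1 set, with cells thinned to the UMI minimum of iMPC cells and at 3-fold, and the count for the Pax7 set against MEF was 2 in place of 5 at 3-fold. The Dmd ratio of the Dcn set over the Pax7 set, 1.20, turned to -0.13 with doublets removed, -0.20 with cells in exactly 1 set and -0.22 with cells thinned to the UMI minimum of iMPC cells; with cells in exactly 1 set the 36 cells shared with the Myog and Ckm sets are absent by construction, and for the other 2 the cause was not tested. The Dmd share of Dmd plus Utrn UMIs in the Ckm set was 41.6% with cells thinned to the UMI minimum of iMPC cells, where the set held 272 cells. Over the 12 alternatives the Ckm over Pax7 log2 ratio ranged from 3.91 to 4.51 for Dmd, 3.97 to 5.07 for Sntb1 and 0.56 to 1.15 for Utrn. No paired analysis was possible because each group held 1 library.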
